A study of Mus musculus with 8 samples.

Results

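Transcript levels of 41 interferon-stimulated genes were compared between *iMLL-AF9* mouse leukemic cells given IOX5, a small-molecule inhibitor of the HIF prolyl hydroxylases, and cells given the DMSO vehicle. The members were taken by their GENCODE M21 symbols, and each of the 41 symbols matched a gene among the 54838 genes counted. They comprise the receptor chains for type I interferon, sensors of foreign nucleic acid, STAT and IRF transcription factors, antiviral effectors, and ISG15 together with enzymes of ubiquitin and ADP-ribose transfer. RNA-seq was performed on 4 DMSO and 4 IOX5 samples, numbered 1 to 4 in each group. All 8 samples carried the doxycycline-inducible *MLL-AF9* allele, although the labels give the genotype as WT, and came from bone marrow cells that the labels call leukemic stem cells and the design text of the series calls preleukemic. The dose of IOX5, the duration of treatment and whether each number stands for a separate animal or culture are not stated. The p-values therefore measure only the spread between these samples, which may be technical.

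Type I interferon binds the receptor formed by IFNAR1 and IFNAR2, and the kinases JAK1 and TYK2 then phosphorylate STAT factors such as STAT2, which join IRF9 in the factor ISGF3. ISGF3 binds the interferon-stimulated response element (ISRE) in the promoters of its target genes, whereas STAT dimers activated mainly by interferon-γ bind the GAS element. Many of the targets also keep a basal level in cells that have met no interferon, and sensors such as RIG-I feed back on the pathway by inducing interferon.

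The reads assigned to genes numbered 12343770 to 14116054 per DMSO library and 11351507 to 12708888 per IOX5 library. As a check of the treatment, 10 of 10 HIF target genes examined had a positive fold change, against 52.8% of all genes. By edgeR, 6 were called higher without the replicate number in the fit (0.774% of all genes) and 10 with it (11.2%). Among the 6 were *Ankrd37* (log2 fold change 1.38), *Pdk1* (0.67), *Pgk1* (0.57) and *Ldha* (0.38). Markers of immature myeloid cells were expressed, with a summed level of 2456 to 4778 CPM (read counts scaled to library size) in DMSO and 2859 to 5525 CPM in IOX5. Of 10 markers of plasmacytoid dendritic cells, the professional producers of type I interferon, 7 stayed under 1 CPM in every sample, and *Klk1* had no read. The list summed to 151 to 193 CPM in DMSO and 155 to 223 CPM in IOX5, most of it from *Runx2* (mean 113 CPM in each group) and *Lair1* (54.1 and 70.4 CPM), 2 genes that other blood cells also express. Of the T and NK cell markers, 8 of 10 stayed under 1 CPM in every sample, with *Cd3g*, *Cd8a* and *Ncr1* at 0. That list summed to 9.10 to 26.2 CPM in DMSO and 13.8 to 33.6 CPM in IOX5. Most of it came from *Nkg7* (mean 11.6 CPM in DMSO and 17.1 CPM in IOX5) and *Lck* (5.74 and 6.39 CPM). The summed level of 10 macrophage markers was 168 to 233 CPM in DMSO and 255 to 569 CPM in IOX5, highest in IOX5 replicate 2, with *C1qa* under 1 CPM throughout. By edgeR, 0 of 9 tested were called higher without the replicate number in the fit (0.774% of all genes) and 4 with it (11.2% of all genes). Without the replicate number, DESeq2 called 3 higher of 7 with an adjusted p (3.9% of all genes) and voom 2 of 9 (3.43%). With the replicate number, edgeR also called higher 8 of 9 mast cell and basophil, 6 of 10 neutrophil and 5 of 10 immature myeloid markers. It called 2 of 5 erythroid, 1 of 2 T and NK cell and 1 of 2 plasmacytoid dendritic cell markers. For stroma and endothelium it was 1 of 3, and for B cells 0 of 1. Without the number, edgeR called 0 higher in each of these lists except that of stroma and endothelium, where it called 1. In bulk RNA, a change in the number of cells of a type cannot be told apart from a change in RNA per cell.

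Promoter sequences from RefSeq (GRCm38.p6, 250 bases before to 50 bases after the transcription start) were found for 33 of the 41 members. The core ISRE, GAAA and GAAA spaced by any 2 bases, on either strand, occurred in 18 of these 33 (54.5%), compared with 3.99% of the 27025 genes that have a promoter in the table. The longer form, with CT after the second GAAA, occurred in 11 members (33.3%) and in 0.303% of all genes. The GAS motif TTCNNNGAA was present in 12 members (36.4%) and in 9.55% of all genes. The hypoxia response element core, ACGTG or GCGTG, was as common in the members (15 of 33, 45.5%) as in all promoters (46.7%). An ISRE match was found for 5 of 5 interferon-inducible GTPases, 3 of 3 sensors with a promoter entry, 6 of 9 genes of the group that holds *Ifit* and *Bst2*, 2 of 4 OAS genes, 1 of 4 STAT and IRF factors, 1 of 3 genes of the group that holds *Isg15*, 0 of 3 other effectors (*Ifi35*, *Ifi44* and *Xaf1*) and 0 of 2 receptor chains. The promoters below are shown as examples with several ISRE matches (*Isg15*, *Ifit1*, *Bst2*, *Oas1a* and *Ifitm3*, the most abundant member) and for effectors described closely in the comparison (*Rsad2*, *Bst2* and *Ifit2*). Each reads 5′ to 3′ on the strand of the gene, and capitals mark ISRE matches, which run together where they overlap.
Isg15, chr4:156200769-156201068, minus strand: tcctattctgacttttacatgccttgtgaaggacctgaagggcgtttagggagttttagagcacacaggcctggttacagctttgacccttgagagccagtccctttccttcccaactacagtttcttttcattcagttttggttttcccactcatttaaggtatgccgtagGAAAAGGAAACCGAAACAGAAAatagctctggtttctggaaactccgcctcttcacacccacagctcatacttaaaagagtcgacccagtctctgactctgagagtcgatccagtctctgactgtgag
Ifit1, chr19:34640639-34640938, plus strand: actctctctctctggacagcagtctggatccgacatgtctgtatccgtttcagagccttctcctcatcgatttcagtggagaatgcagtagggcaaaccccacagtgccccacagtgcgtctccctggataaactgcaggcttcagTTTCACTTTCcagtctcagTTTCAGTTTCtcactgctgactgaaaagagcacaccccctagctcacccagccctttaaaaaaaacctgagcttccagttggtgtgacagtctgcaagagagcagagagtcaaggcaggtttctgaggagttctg
Rsad2, chr12:26456403-26456702, minus strand: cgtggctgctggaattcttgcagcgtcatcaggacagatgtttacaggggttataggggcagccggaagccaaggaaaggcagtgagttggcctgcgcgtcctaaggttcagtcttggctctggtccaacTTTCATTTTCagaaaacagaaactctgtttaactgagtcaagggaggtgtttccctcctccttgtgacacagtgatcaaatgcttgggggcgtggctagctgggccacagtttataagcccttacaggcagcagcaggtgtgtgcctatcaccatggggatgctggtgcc
Bst2, chr8:71537423-71537722, minus strand: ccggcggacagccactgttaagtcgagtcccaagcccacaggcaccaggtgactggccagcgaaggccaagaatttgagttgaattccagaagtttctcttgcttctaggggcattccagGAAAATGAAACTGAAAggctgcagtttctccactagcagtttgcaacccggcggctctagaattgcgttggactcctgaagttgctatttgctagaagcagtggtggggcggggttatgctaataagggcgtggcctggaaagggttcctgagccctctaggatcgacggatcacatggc
Oas1a, chr5:120907476-120907775, minus strand: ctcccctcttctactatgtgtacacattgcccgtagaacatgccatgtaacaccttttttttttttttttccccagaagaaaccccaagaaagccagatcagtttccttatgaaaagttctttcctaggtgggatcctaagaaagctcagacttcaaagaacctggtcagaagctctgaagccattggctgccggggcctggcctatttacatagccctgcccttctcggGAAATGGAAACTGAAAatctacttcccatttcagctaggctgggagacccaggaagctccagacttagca
Ifitm3, chr7:141010695-141010994, minus strand: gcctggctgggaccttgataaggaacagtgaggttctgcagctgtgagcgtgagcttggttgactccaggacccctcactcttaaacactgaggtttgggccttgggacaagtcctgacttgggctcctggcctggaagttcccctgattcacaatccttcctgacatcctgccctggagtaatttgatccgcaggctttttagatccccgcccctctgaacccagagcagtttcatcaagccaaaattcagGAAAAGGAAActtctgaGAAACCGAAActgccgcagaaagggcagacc
Ifit2, chr19:34550444-34550743, plus strand: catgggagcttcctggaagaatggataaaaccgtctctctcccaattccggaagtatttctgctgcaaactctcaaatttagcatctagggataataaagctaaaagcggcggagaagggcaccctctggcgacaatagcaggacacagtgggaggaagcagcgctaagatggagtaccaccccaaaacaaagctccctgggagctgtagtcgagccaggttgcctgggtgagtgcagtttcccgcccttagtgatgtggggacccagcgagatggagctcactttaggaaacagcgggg
The promoter of *Isg15* held 3 overlapping ISRE matches, which began at positions -78, -72 and -66 from the start, and those of *Bst2* and *Oas1a* held 2 overlapping matches each. In *Ifitm3* and *Bst2* an ISRE match also overlapped a GAS match. *Ifit2* held no ISRE match around either of its annotated starts, of which the first is shown, which says only that these letters are not in this window.

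No interferon-stimulated gene passed edgeR's test between the 4 IOX5 and the 4 DMSO samples when the replicate number was left out of the fit. Of the 41 members, 34 had enough reads to be tested, and edgeR's quasi-likelihood test found 0 of them higher and 0 lower with an adjusted p below 0.05, where 0.774% of the 12405 genes tested were higher and 1.25% lower. These shares stood for 96 and 155 genes, and for 101 and 108 with upper-quartile in place of TMM factors. Without adjustment 3 members were under 0.05, *Bst2* and *Gbp2* higher and *Ifit2* lower (8.82%, against 20.2% of all genes). DESeq2 called 0 higher and 0 lower of the 31 members to which it gave an adjusted p, with 2 members under 0.05 before adjustment, where it called 3.9% of all genes higher and 4.9% lower. Voom with sample weights called 0 higher and 1 lower, *Ifit2*, where it called 3.43% of all genes higher and 4.92% lower. Before adjustment 8 members were under 0.05 by voom (23.5%, against 26.4% of all genes). The median log2 fold change of the 34 members was 0.07 (range -0.85 to 0.67), beside 0.02 over all genes tested, and 21 members (61.8%) had a positive value, beside 52.8% of all genes. The 95% interval of the fold change lay within 1 on the log2 scale for 30 of 34 members and within 0.5 for 19. The 4 members with wider intervals were *Rsad2*, *Oas2*, *Oasl2* and *Xaf1*.

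The samples of 1 number resembled each other across treatments, so the comparison was also made within numbers. Numbers 3 and 4 were not clearly told apart. The deviations of DMSO replicate 4 from its group mean correlated at 0.685 with those of IOX5 replicate 3 and at 0.636 with those of IOX5 replicate 4. Fitted with a block for the number, 1 member was lower by edgeR, *Ifit2*, and 0 were higher, although this fit called 11.2% of all genes higher and 9.43% lower. DESeq2 with the block called 0 members in either direction, against 7.45% of all genes higher and 6.57% lower. Before adjustment 9 members (26.5%) were under 0.05 in the blocked fit, against 35.4% of all genes. The intervals of 32 members then lay within 1 and those of 26 within 0.5 on the log2 scale. IOX5 was above DMSO in all 4 numbers for 9 members (26.5%, against 21.3% of all genes) and below it in all 4 for *Ifit2* alone (2.94%, against 19.8%).

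**Figure D1:**
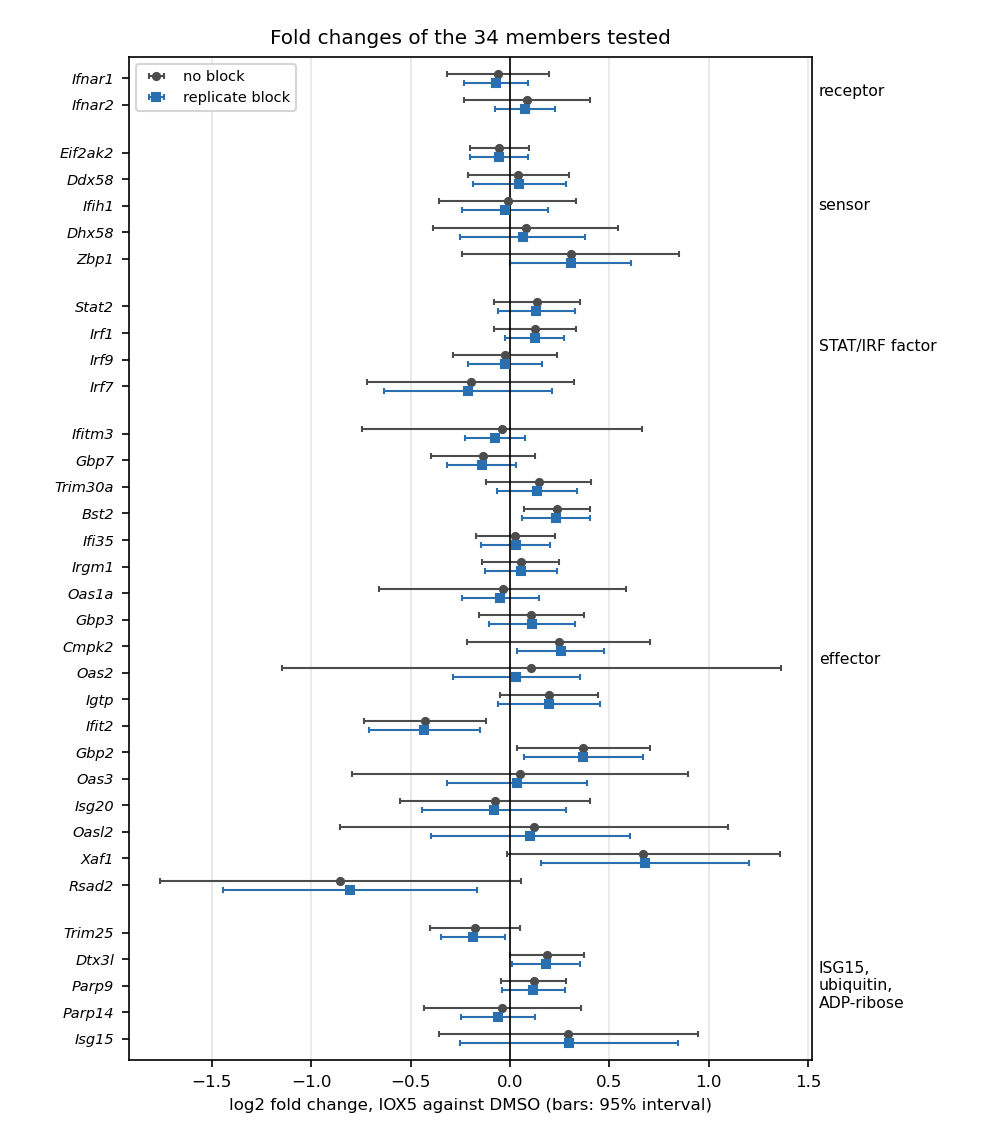
Log2 fold change of IOX5 against DMSO (x axis) for each of the 34 members tested, grouped by role, without (circles) and with (squares) the replicate number as a block; bars are 95% intervals. *Rsad2* (-0.85) and *Xaf1* (0.67) lie farthest from 0, and of the fits drawn only the blocked one called a member, *Ifit2*.

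The levels themselves spanned a wide range. By mean CPM over the 8 samples, 7 members were under 1, 12 between 1 and 10, 19 between 10 and 100, and 3 at 100 or more. *Ifitm3*, which encodes a membrane protein that restricts viral entry, was the most abundant at 349.6 CPM, followed by *Ifnar1* at 143.8 and *Trim25* at 117.7. On the per-length scale of CPM per kilobase of exon, *Ifitm3* reached 516, above 99.6% of the genes tested, and the next member, *Bst2*, 35.0. *Isg15* stood at 1.79 and *Rsad2* at 0.385 on this scale, above 21.6% and 5.2% of the genes tested. The 7 members too low to be tested were *Ifit1* (33 reads in the 4 DMSO libraries, 25 in the 4 IOX5 libraries), *Usp18* (32 and 49), *Mx1* (27 and 17), *Ifit3* (12 and 6), *Oasl1* (9 and 7), *Mx2* (7 and 5) and *Ifi44* (0 and 0). A count of 0 allows a level of up to 0.0298 CPM for *Ifi44* over the 8 libraries, from counting error only. The effectors often read as signs of an interferon response, the IFIT and Mx genes with *Isg15* and *Rsad2*, were thus among the members of lower level in both groups.

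**Figure D2:**
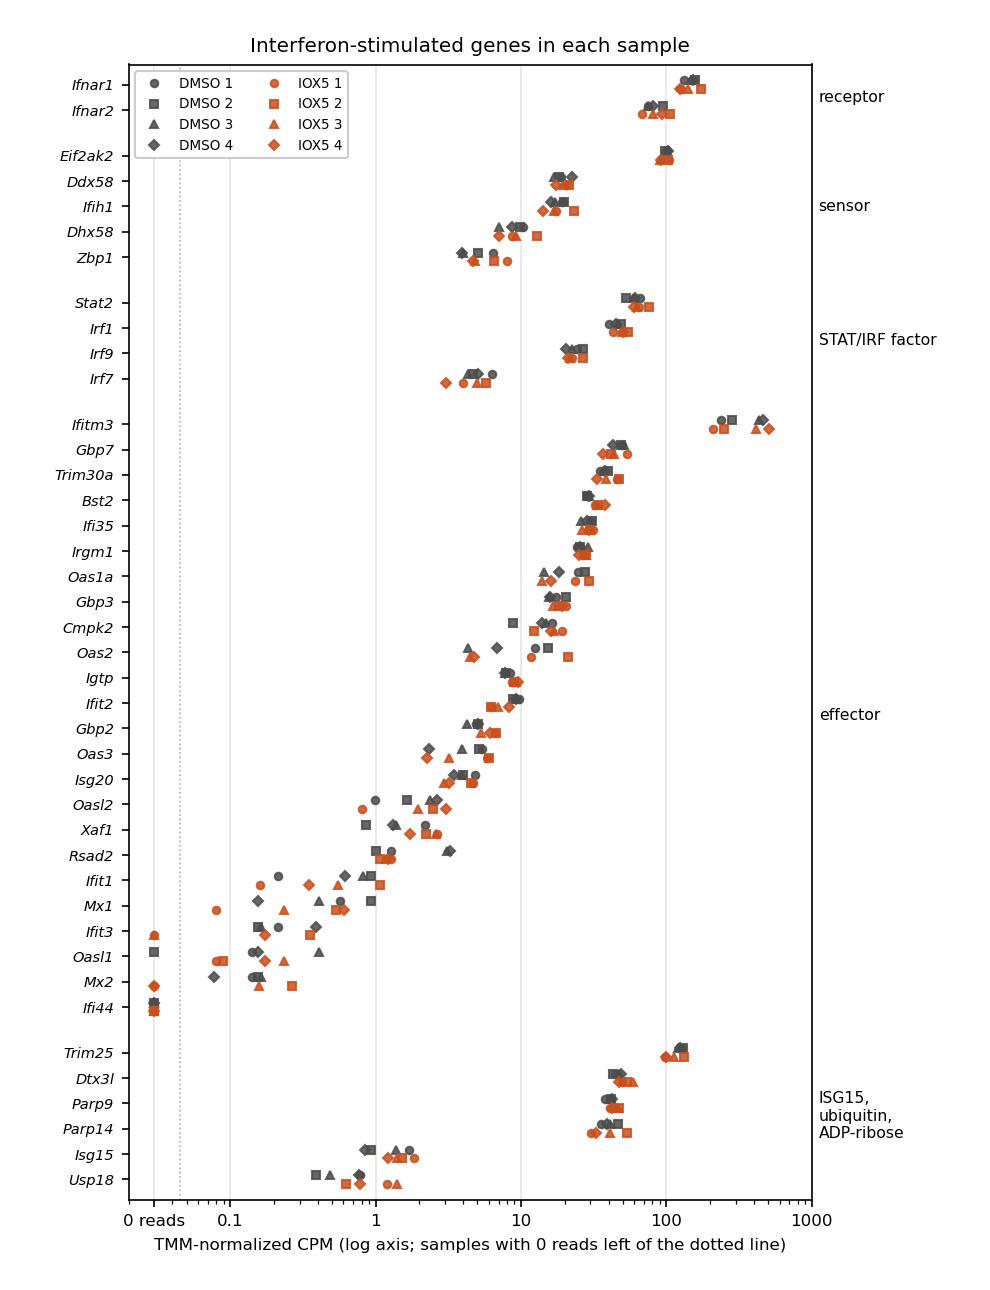
TMM-normalized CPM (x axis, log scale) of each of the 41 members in each sample, grouped by role and ordered by mean level; gray symbols are DMSO, orange symbols IOX5, and the symbol shape gives the replicate number. Samples with 0 reads are drawn left of the dotted line, where *Ifi44* has all 8 samples, and *Ifitm3* has the highest levels.

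The ligands were all but absent. Of 21 interferon genes counted, 17 had no read in any library, and the other 4 had 4 reads in the DMSO libraries and 3 in the IOX5 libraries, of 52624868 and 47898115 reads counted. *Ifnb1*, which encodes interferon-β, had 1 read, in DMSO replicate 3. The receptor chains, in contrast, were well expressed. *Ifnar1* measured 132, 156, 146 and 153 CPM in DMSO replicates 1 to 4 and 126, 173, 140 and 124 CPM in IOX5 replicates 1 to 4. *Ifnar2* measured 74.4, 95.4, 75.2 and 81.0 CPM in DMSO and 67.4, 105, 80.8 and 92.8 CPM in IOX5. The groups overlapped for both chains, and neither passed the test (*Ifnar1*, log2 fold change -0.06, 95% interval -0.32 to 0.20; *Ifnar2*, 0.09, -0.23 to 0.40). The genes of the receptor-bound kinases, *Jak1* (log2 fold change 0.08, adjusted p = 0.556) and *Tyk2* (0.09, adjusted p = 0.736), did not pass edgeR's test.

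None of the 5 sensors passed the test in either fit. *Ddx58*, which encodes the RNA helicase RIG-I, measured 18.9, 18.3, 17.0 and 22.2 CPM in DMSO and 20.4, 21.4, 19.5 and 17.4 CPM in IOX5 (log2 fold change 0.04, 95% interval -0.21 to 0.30). *Ifih1*, which encodes the related helicase MDA5 for longer double-stranded RNA, measured 19.1, 19.8, 17.1 and 16.1 CPM in DMSO and 17.5, 23.0, 17.0 and 14.1 CPM in IOX5 (-0.01, -0.36 to 0.33). The spread between numbers exceeded the difference between treatments in both helicase genes. *Dhx58*, which encodes LGP2, a helicase that regulates the other two, measured 10.2, 9.80, 7.07 and 8.72 CPM in DMSO and 8.65, 13.0, 9.22 and 7.02 CPM in IOX5 (0.08, -0.39 to 0.54). The groups overlapped here too. *Eif2ak2*, which encodes the kinase PKR that halts translation on double-stranded RNA, was the most abundant sensor and the tightest, at 101, 98.4, 101 and 103 CPM in DMSO and 104, 103, 90.0 and 91.2 CPM in IOX5 (-0.05, -0.20 to 0.09). *Zbp1*, which encodes a sensor of Z-form nucleic acid and a trigger of necroptosis, measured 6.42, 5.06, 3.98 and 3.94 CPM in DMSO and 8.01, 6.48, 4.85 and 4.68 CPM in IOX5. IOX5 was above DMSO for *Zbp1* in each of the 4 numbers, by 0.24 to 0.35 on the log2 CPM scale, yet the groups overlapped and the fold change of 0.31 had an edgeR adjusted p of 0.518 without the block and 0.138 with it.

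The 4 STAT and IRF factors did not pass the test either. *Stat2*, the ISGF3 subunit specific to type I and III signaling, measured 65.4, 52.6, 60.2 and 61.2 CPM in DMSO and 64.4, 76.2, 62.6 and 59.8 CPM in IOX5 (log2 fold change 0.14, 95% interval -0.08 to 0.35), with the highest value in IOX5 replicate 2. *Irf9*, the DNA-binding subunit of ISGF3, measured 24.3, 26.6, 22.3 and 20.3 CPM in DMSO and 22.4, 26.7, 21.7 and 21.1 CPM in IOX5 (-0.02, -0.29 to 0.24). The means of *Irf9* were 23.4 ± 2.70 CPM in DMSO and 23.0 ± 2.57 CPM in IOX5 (SD, n = 4 each), less than 1 SD apart. *Irf1*, a factor induced strongly by interferon-γ, measured 40.0, 48.8, 46.8 and 45.1 CPM in DMSO and 43.1, 54.4, 49.2 and 50.4 CPM in IOX5, higher in all 4 numbers by 0.07 to 0.16 on the log2 CPM scale (0.13, -0.08 to 0.33). *Irf7*, the amplifier of interferon-α production, measured 6.35, 4.67, 4.31 and 5.10 CPM in DMSO and 4.0, 5.77, 5.0 and 3.04 CPM in IOX5 (-0.20, -0.72 to 0.32). It was lower with IOX5 in numbers 1 and 4 and higher in numbers 2 and 3. *Irf7* shares 45 exon bases with *Phrf1* on the opposite strand, and *Irf9* shares 123 with *Rnf31* on the same strand.

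Among the effectors, *Ifit2* was called in the blocked fit and by voom, but not by edgeR without the block. Its product belongs to the IFIT family, which binds foreign RNA and limits its translation. *Ifit2* (ENSMUSG00000045932, chr19:34550694-34576419) measured 9.74, 8.87, 9.26 and 9.19 CPM in DMSO and 6.17, 6.22, 6.96 and 8.24 CPM in IOX5, from 70 to 138 reads per library. All 4 IOX5 values lay below all 4 DMSO values, and the means were 6.89 ± 0.966 and 9.26 ± 0.361 CPM (SD, n = 4 each). The log2 fold change was -0.43 (95% interval -0.73 to -0.12) with an edgeR adjusted p of 0.129, and -0.43 (-0.71 to -0.15) with 0.0322 in the blocked fit. Over the 10 alternatives with all samples the adjusted p ran from 0.0279 to 0.389. The within-number difference was -0.65, -0.50, -0.41 and -0.16 on the log2 CPM scale in numbers 1 to 4. With the block, the adjusted p was 0.0286 without number 4 but rose to as much as 0.128 when number 1, 2 or 3 was left out, and the call was then lost.

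*Rsad2* and *Bst2* stood next to it. *Rsad2*, which encodes viperin, a producer of a chain-terminating nucleotide, measured 1.27, 1.01, 3.09 and 3.24 CPM in DMSO and 1.28, 1.07, 1.17 and 1.21 CPM in IOX5. The difference rested on DMSO replicates 3 and 4, which held 38 and 42 reads where the other 6 libraries held 12 to 18. In numbers 1 and 2 the difference was 0.01 and 0.07 on the log2 CPM scale, and in numbers 3 and 4 it was -1.29 and -1.31. The fitted log2 fold change of -0.85 had an edgeR adjusted p of 0.276 without the block and 0.0702 with it. With the block it was 0.0170 without number 2 and 0.349 without number 3. *Cmpk2*, the neighbor of *Rsad2* on chromosome 12, which encodes a mitochondrial nucleotide kinase, had a positive log2 fold change, 0.24 (adjusted p = 0.54 by edgeR). *Bst2*, which encodes tetherin, a protein that holds budding virus at the cell surface, measured 28.5, 28.6, 29.5 and 29.4 CPM in DMSO and 32.1, 33.7, 33.2 and 37.6 CPM in IOX5. Here all 4 IOX5 values lay above all 4 DMSO values. The log2 fold change of *Bst2* was 0.23 (95% interval 0.07 to 0.40), with an edgeR adjusted p of 0.124 without the block and 0.0534 with it. Groups did not overlap for 3 members that were higher with IOX5, *Bst2*, *Gbp2* and *Igtp* (8.82% of members, against 5.98% of all genes), and for 1 that was lower, *Ifit2* (2.94%, against 8.3%).

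The remaining effectors were summarized by family. The OAS genes, which encode synthases of the 2′-5′ oligoadenylates that activate RNase L, had log2 fold changes of -0.04 (*Oas1a*), 0.11 (*Oas2*), 0.05 (*Oas3*) and 0.12 (*Oasl2*), and edgeR adjusted p-values of 0.904 or more. The 5 interferon-inducible GTPases, which act on vacuoles that hold intracellular pathogens, ran from -0.13 (*Gbp7*) to 0.37 (*Gbp2*), and 4 of 5 were positive. *Gbp2* measured 4.87, 5.06, 4.22 and 5.02 CPM in DMSO and 6.57, 6.75, 5.32 and 6.16 CPM in IOX5, with an edgeR adjusted p of 0.210 without the block and 0.0765 with it. *Xaf1*, which encodes a pro-apoptotic antagonist of XIAP, had the largest positive value of the members, 0.67, at 2.19, 0.856, 1.38 and 1.31 CPM in DMSO and 2.64, 2.22, 2.58 and 1.73 CPM in IOX5. Its adjusted p was 0.257 by edgeR without the block and 0.0631 with it, and its lowest DMSO value came from 11 reads. Reads of near-identical copies in the OAS, IFIT, IFITM and GBP families could have been divided or left out in the counting, so their levels are less certain than those of single-copy genes.

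In the group of ISG15 and the enzymes of ubiquitin and ADP-ribose transfer, 0 of 5 tested members passed. *Isg15*, the ubiquitin-like modifier, measured 1.69, 0.933, 1.38 and 0.849 CPM in DMSO and 1.84, 1.51, 1.41 and 1.21 CPM in IOX5 (log2 fold change 0.29, 95% interval -0.36 to 0.94), from 11 to 24 reads per library. *Trim25*, the ubiquitin and ISG15 ligase that activates RIG-I, measured 125, 130.5, 120 and 124 CPM in DMSO and 97.6, 133, 113 and 98.7 CPM in IOX5 (-0.17, -0.40 to 0.05). IOX5 replicate 2 was above all DMSO samples for *Trim25* and the other 3 IOX5 replicates were below them. *Parp9* and *Dtx3l*, which encode the subunits of a mono-ADP-ribosyl and ubiquitin ligase complex, had log2 fold changes of 0.12 and 0.19, and *Parp14* had -0.04. *Parp9* and *Dtx3l* overlap head to head on opposite strands of chromosome 16 and share 458 exon bases.

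Within each number the members lay on both sides of 0, with most above it in number 2. The median difference of the 34 members on the log2 CPM scale was 0.05, 0.19, 0.04 and -0.03 in numbers 1 to 4, beside 0.0044, 0.035, -0.00079 and 0.0039 over all genes tested. In number 2, IOX5 was above DMSO for 29 of 34 members, and in numbers 1, 3 and 4 for 19, 19 and 15. IOX5 replicate 2 was also the sample with the highest macrophage marker sum, 569 CPM against 233 in DMSO replicate 2, and *Mrc1* was at 63.7 against 7.47 CPM. It also had the highest sums of neutrophil markers (3674 against 2851 CPM in DMSO replicate 2) and plasmacytoid dendritic cell markers (223 against 172). The same held for markers of stroma and endothelium (55.0 against 13.0) and B cells (9.32 against 9.10). Most of the stroma and endothelium sum came from *Vwf* (51.7 against 10.1 CPM), and most of the B cell sum from *Cd79b* (7.99 against 8.40 CPM). In these lists 6 and 9 of 10 markers stayed under 1 CPM in every sample. IOX5 replicate 2 was not highest for the immature myeloid, T and NK, mast cell and basophil, or erythroid lists. Whether cells of these types were present was not tested, nor was the part of their RNA in the members' values. Without number 2, the median of the members in the blocked fit was -0.02.

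**Figure D3:**
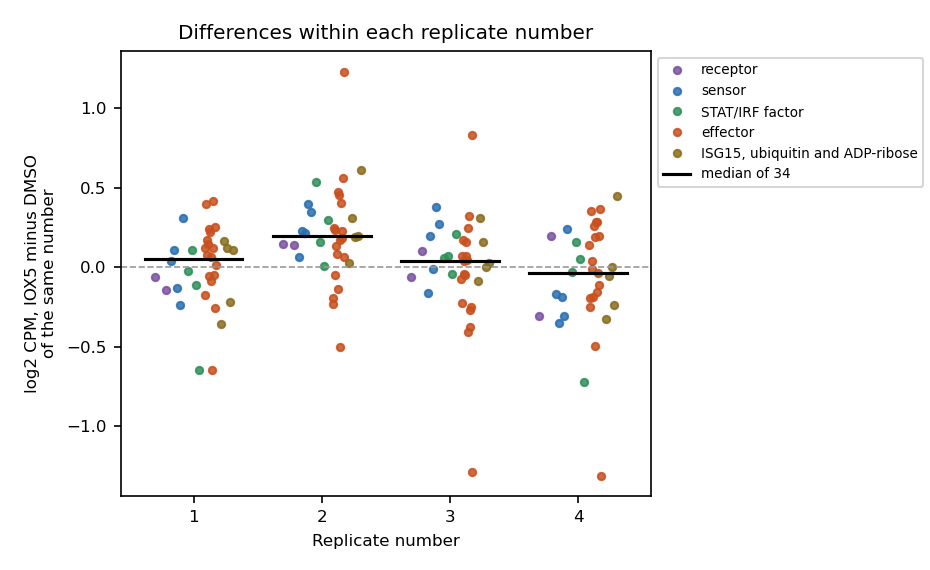
Difference in log2 CPM between the IOX5 and the DMSO sample of the same replicate number (y axis) for the 34 members tested, by number (x axis); each point is a gene, colored by role, and black lines are the medians (0.05, 0.19, 0.04 and -0.03). Most points of number 2 lie above 0, and those of the other numbers lie on both sides.

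Several members differed more between numbers than between treatments. With treatment held fixed, edgeR's quasi-likelihood F test of the replicate number called 9 of 34 members (26.5%), where 22.5% of all genes were called: *Ifnar2*, *Zbp1*, *Ifitm3*, *Cmpk2*, *Oas1a*, *Oas2*, *Oas3*, *Oasl2* and *Parp14*. The share was thus near that of all genes, but the 4 OAS genes tested were all among the 9. *Oas2* measured 12.4 and 15.2 CPM in DMSO replicates 1 and 2 and 4.31 and 6.79 CPM in replicates 3 and 4, and in IOX5 11.7 and 21 against 4.46 and 4.77 CPM (adjusted p for the number 2.0e-05). *Oas1a* measured 24.5 and 27.5 against 14.3 and 18.4 CPM in DMSO and 23.5 and 29.1 against 13.8 and 16.1 CPM in IOX5. The ratio of the mean of numbers 1 and 2 to that of numbers 3 and 4 was 2.97 for *Oas2*, 1.92 for *Oas3* and 1.67 for *Oas1a*, 3 genes of 1 cluster on chromosome 5. *Ifitm3* showed the opposite order, at 238 and 284 against 435 and 461 CPM in DMSO and 211 and 249 against 413 and 507 CPM in IOX5, so that numbers 3 and 4 were 1.85 times numbers 1 and 2 (adjusted p for the number 3.9e-06). The fourth OAS gene, *Oasl2*, was also lower on average in numbers 1 and 2, at 1.48 against 2.49 CPM, although its samples overlapped.

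The division of numbers 1 and 2 from 3 and 4 was noticed in these data and carries no label. All samples of numbers 1 and 2 lay above all of numbers 3 and 4 for 8 members (23.5%, against 9.33% of all genes), namely *Ifih1*, *Zbp1*, *Irf9*, *Isg20*, *Oas1a*, *Oas2*, *Oas3* and *Ifi35*, and below them for *Ifitm3* alone (2.94%, against 5.89%). Among genes outside the list, *Oas1g* was higher in numbers 1 and 2 (2.88 to 4.09 against 0.520 to 0.975 CPM). *Ifitm1*, of the same cluster as *Ifitm3*, had 674 to 928 CPM in numbers 1 and 2 and 1014 to 1469 CPM in numbers 3 and 4. The summed level of mast cell and basophil markers followed the same division, at 188 to 364 CPM in numbers 1 and 2 and 656 to 1139 CPM in numbers 3 and 4. Within each number the sum was also higher with IOX5 (331 against 270, 364 against 188, 1139 against 727 and 911 against 656 CPM). Other lists held genes with the division of numbers 1 and 2 from 3 and 4 too. Of 10 neutrophil markers, 5, such as *S100a8*, lay wholly higher in numbers 1 and 2, and 1 in numbers 3 and 4. *S100a8* had a mean of 477 CPM in numbers 1 and 2 and 173 CPM in numbers 3 and 4. Of 10 immature myeloid markers, 3 lay wholly higher in numbers 1 and 2, and 3, such as *Cd34*, in numbers 3 and 4. What the numbers stand for was not tested.

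**Figure D4:**
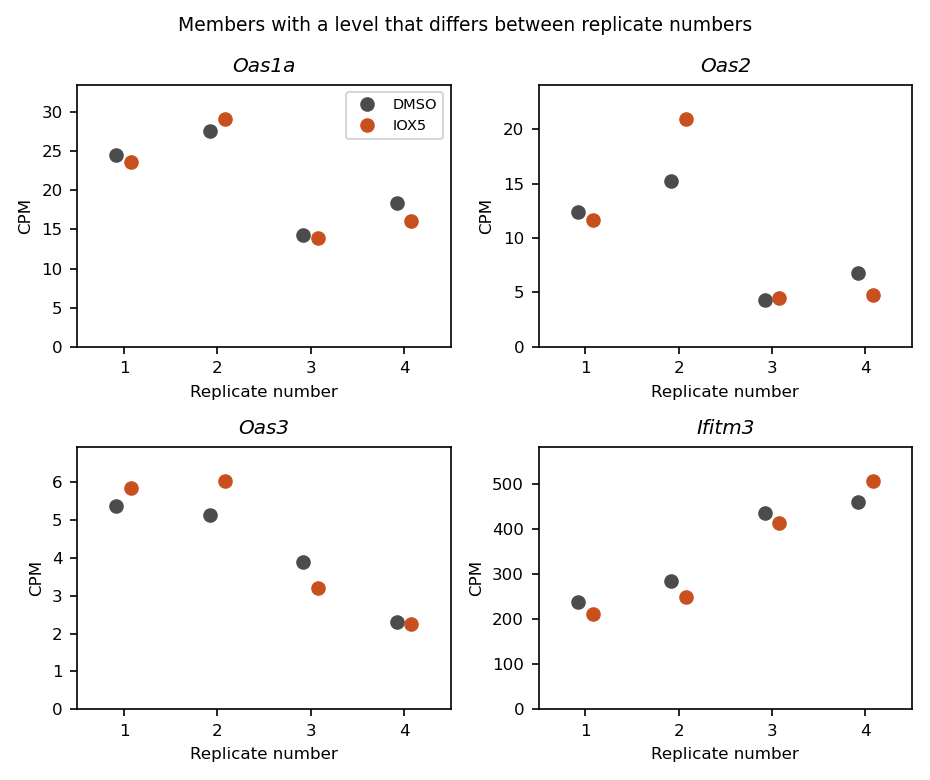
CPM (y axis, from 0) of *Oas1a*, *Oas2*, *Oas3* and *Ifitm3* by replicate number (x axis), with each DMSO sample in gray and each IOX5 sample in orange. The 3 OAS genes are higher in numbers 1 and 2 in both treatments and *Ifitm3* is higher in numbers 3 and 4, whereas the treatments lie close together within a number.

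The rest of the pathway was examined through 142 further genes, of which 103 could be tested. Without the block, edgeR called 0 higher and 0 lower among them, with 18 under 0.05 before adjustment (17.5%, against 20.2% of all genes). DESeq2 called 5 higher and 2 lower of the 98 with an adjusted p, where it called 3.9% of all genes higher and 4.9% lower. Voom called 4 higher and 1 lower of the 103, against 3.43% and 4.92% of all genes. The block moved the edgeR counts to 19 higher (18.4%, against 11.2% of all genes) and 5 lower (4.85%, against 9.43%). The median log2 fold change of the 103 genes was 0.08. Of these, 50 were further interferon-stimulated genes outside the 41 members, with a median of 0.17. Among the 50, edgeR called 0 in either direction without the block. With it, edgeR called 12 of the 50 higher and 2 lower, against 11.2% and 9.43% of all genes. DESeq2 without the block called 5 higher and 1 lower of the 45 with an adjusted p, against 3.9% and 4.9% of all genes. *Irf3*, the factor that the sensors activate, had a log2 fold change of -0.04, *Irf8*, a factor of monocyte and dendritic cell development, -0.18, *Ifngr1*, a chain of the interferon-γ receptor, -0.07, and *Socs1*, the feedback inhibitor of JAK kinases, 0.32. These 4 genes were not called with or without the block, and *Socs1* had the lowest adjusted p of them, 0.0556 in the blocked fit by edgeR.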

How the data were processed

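RNA from 8 samples (4 DMSO, 4 IOX5; groups and numbers taken from the labels) was made into poly(A)-selected directional libraries, and the authors trimmed reads with cutadapt 1.18, aligned them to GRCm38 with HISAT2 2.2.1 and deposited counts per gene from HTSeq 2.0.1, per the labels and methods. The annotation release given to the counting and its strand setting are not given in the sources used here. The summary lines at the end of each file, 20.6% to 22.6% of a library, were left out. Counts were filtered with filterByExpr and normalized with TMM factors (0.988 to 1.025) in edgeR 4.0.16 (R 4.3.3), and IOX5 was compared with DMSO by the quasi-likelihood test over 12405 genes, with Benjamini-Hochberg adjustment and a threshold of 0.05. The common biological coefficient of variation was 0.202. Per-length levels used the summed exon length of GENCODE M21. Log2 CPM values used a prior count of 2.

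The replicate number, an F test of which was also made, entered as a block in an alternative fit. Deviations from the group means of same-numbered samples correlated at 0.636 to 0.758, so the numbers were taken as pairs from the data, although the labels do not say what they mark, and numbers 3 and 4 also resembled each other (up to 0.685 between different numbers). No 2 samples of a group agreed within sampling noise (chi-square per gene 2.17 or more). Other alternatives were DESeq2 1.42.0, voom with sample weights (limma 3.58.1), other scaling factors and filters, thinned counts, and leaving out samples. On simulated counts with 200 changed genes of 12405, the test without the block recovered 71 with 2 false calls and the blocked test 95 with 6. The simulation used a lower dispersion than that of the data and a number effect shared by both groups. Its planted changes were larger than the fold changes of most members, so these rates need not hold for the real counts.

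The members, the other lists and the named genes were chosen with earlier results of these data known: values in every sample were given for members called in either fit, the receptors, sensors, STAT and IRF factors and the most abundant members, and further members were named after their values were seen. Lists received no test of their own. Some genes of the lists are not reported here.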

Additional observations from a re-analysis of the deposited data

Results flagged for a closer look

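Of 68 groups of 4 samples examined among the 34 tested members, 1 held a sample far from the others, fewer than the share of about 1 in 20 that chance gives. *Igtp*, which encodes an interferon-inducible GTPase, stood at 8.33 CPM in DMSO replicate 1, where the other 3 DMSO samples lay between 7.80 and 7.86 CPM. *Igtp* shares 162 exon bases with *Irgm2* on the same strand, and the cause was not tested.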

How the results depend on the processing

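Under the 10 alternatives with all samples, 330 of the 340 fold changes of members kept their direction and their side of the threshold, 4 passed it and 6 changed sign. The sign changed for *Ifih1* with upper-quartile factors (0.0052), with at least 10 counts in every sample (0.0023) and with thinned counts (0.027), for *Irf9* with voom (0.013) and with thinned counts (0.0050), and for *Oasl2* with voom (-0.29). The replicate block, which pairs the samples by number, gave 1 member lower, and among the other pathway genes 19 higher and 5 lower, and over all genes 1394 higher and 1170 lower. With numbers 3 and 4 as 1 level of the block, an alternative chosen after seeing the data, the counts were 1 member higher (*Bst2*) and 1 lower, 20 and 5 pathway genes, and 1438 and 1216 genes. DESeq2 gave 5 and 2 pathway genes and 433 and 544 genes, and with the block, also added after seeing the data, 12 and 3 and 901 and 795. Voom gave 1 member lower, 4 and 1 pathway genes, and 426 and 610 genes. An adjusted p under 0.1 gave 1 pathway gene higher, and 332 and 486 genes. With no filter on low counts 73 genes were lower. The longer ISRE occurred in 11 members.

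With samples left out, with or without the block, the members called ranged from 0 to 1 higher (*Dtx3l*, with the block without number 4) and from 0 to 2 lower (*Rsad2* and *Trim25*, with the block without number 2), the pathway genes from 0 to 21 higher and from 0 to 8 lower, and all genes from 0 to 1355 higher and from 0 to 1058 lower. The direction changed in 50 of 408 such values, and 20 of 34 members kept theirs in all settings run. The ranges of the log2 fold changes that changed sign were -0.18 to 0.012 for *Ifnar1*, -0.021 to 0.19 for *Ifnar2*, -0.014 to 0.18 for *Ddx58*, -0.15 to 0.085 for *Ifih1*, -0.11 to 0.20 for *Dhx58*, -0.11 to 0.043 for *Irf9*, -0.18 to 0.032 for *Isg20*, -0.29 to 0.14 for *Ifitm3*, -0.25 to 0.11 for *Oas1a*, -0.48 to 0.41 for *Oas2*, -0.15 to 0.26 for *Oas3*, -0.12 to 0.39 for *Oasl2*, -0.023 to 0.074 for *Ifi35* and -0.22 to 0.070 for *Parp14*. The cause of these changes was not tested. At under 1 CPM, 7 members could not be compared at this depth.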

Other observations

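Further interferon-responsive genes that are not members passed edgeR's test with the replicate block and not without it. The genes named here were chosen after their values were seen. The one with the smallest blocked adjusted p (0.000224, and 0.136 without the block) was *Lgals3bp*, which encodes a secreted galectin ligand, at 44.3, 32.0, 60.0 and 57.7 CPM in DMSO and 65.9, 61.3, 89.2 and 82.3 CPM in IOX5, higher in all 4 numbers. *Cd274*, which encodes the immune checkpoint ligand PD-L1, measured 21.8, 20.5, 15.4 and 17.1 CPM in DMSO and 33.2, 68.8, 24.3 and 23.3 CPM in IOX5 (log2 fold change 1.0, edgeR adjusted p = 0.147 without and 0.00253 with the block). The highest value of *Cd274* was in IOX5 replicate 2. That sample had the highest marker sums of macrophages, neutrophils, plasmacytoid dendritic cells, B cells, and stroma and endothelium. The plasmacytoid dendritic cell sum came mostly from *Runx2* and *Lair1*, the B cell sum from *Cd79b*, and the stroma and endothelium sum from *Vwf*. The part of RNA from these cell types in the *Cd274* value was not tested. *Ifitm1* and *Ly6e*, which encode membrane proteins that affect viral entry, were the most abundant of them, at 674 to 1060 and 469 to 679 CPM in DMSO and 855 to 1469 and 656 to 893 CPM in IOX5. *Ifitm1* and *Ly6e* were higher with the block (log2 fold change 0.40 and 0.38), whereas the member *Ifitm3* was not called.

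The 5 pathway genes lower in the blocked fit were *Myd88* (log2 fold change -0.41), the adaptor of most Toll-like receptors, *Irf2bpl* (-0.51), *Ifi203* (-0.36), *Wars* (-0.25), which encodes the tryptophanyl-tRNA synthetase, and *Lap3* (-0.21), an aminopeptidase. Of the 103 genes tested, 2, *Wars* and *Ptpn11*, had all 4 IOX5 values below all 4 DMSO values (1.94%, against 8.3% of all genes), and 7 had them above (6.8%, against 5.98%). In 47 of the 103 the level differed between replicate numbers (45.6%, against 22.5% of all genes).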
